A study of Mus musculus with 15 samples.

Results

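Red cell RNA in infarcted mouse hearts was described through Hba-a1, Hba-a2, Hbb-bs, Hbb-bt, Alas2 and Slc4a1, which were picked by name as a measure of blood and erythroid RNA in each library. They are 6 of the 39331 genes in the count table, and all 6 were among the 16437 genes that passed the filter on low counts. The libraries were poly(A)-selected RNA of left ventricles from C57BL/6 mice with experimental myocardial infarction. There were 4 neonatal hearts that had received adult T cells (neonatal recipients), 4 neonatal hearts that had not (neonatal controls), 4 adult hearts with T cells (adult recipients) and 3 adult hearts without (adult controls). Infarction was common to every group, so no group shows an uninjured heart. The protocol places collection of the neonatal ventricles 36 h after infarction and gives no time for the adult ones. Ages, sex, cell dose, sequencing batch, perfusion of the hearts and the number of animals behind a library were not given in the sources used here, so p-values measure the spread between these libraries only.

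Haemoglobin is a tetramer of alpha and beta chains, each holding a haem group that binds oxygen. Hba-a1 and Hba-a2 encode the alpha chains of the mouse, and Hbb-bs and Hbb-bt the beta chains of the haplotype carried by C57BL/6. Alas2 encodes the erythroid form of 5-aminolevulinate synthase, which starts haem synthesis in red cell precursors, and Slc4a1 encodes band 3, the anion exchanger that anchors the red cell skeleton to the membrane. Circulating reticulocytes have lost the nucleus but still hold globin messenger RNA, so RNA from an organ that contains blood contains globin transcripts. In bulk RNA, fewer cells of a type and less RNA per cell cannot be told apart.

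Within each globin pair the coding sequences are near copies, which bears on how far the reads of one copy can be assigned. In GRCm38.p6, Hba-a1 (gene ID 15122) lies on the plus strand at chr11:32283672-32284486 and Hba-a2 (110257) on the plus strand at chr11:32296492-32297310. Their coding sequences of 429 bases differ by the single substitution C381T, counted from the first base of the start codon with the base of Hba-a1 given first. Hbb-bs (100503605) lies on the minus strand at chr7:103826523-103827928 and Hbb-bt (101488143) on the minus strand at chr7:103812524-103813923. Their coding sequences of 444 bases differ by C417T, with the base of Hbb-bs given first. The following stretches of 60 coding bases, from the GENCODE transcripts, show both differences in capitals. They lie at chr11:32284313-32284372 and chr11:32297130-32297189 for the alpha genes and at chr7:103826665-103826724 and chr7:103812656-103812715 for the beta genes, each within 1 exon.
Hba-a1: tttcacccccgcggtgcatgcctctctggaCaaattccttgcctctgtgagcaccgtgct
Hba-a2: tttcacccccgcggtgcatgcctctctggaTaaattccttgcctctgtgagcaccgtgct
Hbb-bs: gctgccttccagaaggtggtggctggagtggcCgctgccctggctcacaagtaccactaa
Hbb-bt: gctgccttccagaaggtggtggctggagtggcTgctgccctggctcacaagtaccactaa

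The longest run shared by the alpha transcripts was 415 bases and that shared by the beta transcripts was 430 bases, against 14 bases between Hba-a1 and Hbb-bs. Of the 100-base windows of the Hba-a1 transcript, 56.5% occurred in Hba-a2, and of those of Hbb-bs 62.6% occurred in Hbb-bt. The deposited values of Hba-a1, Hba-a2 and Hbb-bs were fractional in 15 of 15 libraries and those of Hbb-bt in 13, against 0 for Alas2 and 3 for Slc4a1. The division of reads within a pair is therefore uncertain, and the summed pair is the firmer quantity. Alas2 (11656) lies on the plus strand at chrX:150547417-150570622 and Slc4a1 (20533) on the minus strand at chr11:102348820-102365281.

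Since the globin genes and Alas2 varied together between libraries, their promoters are shown beside each other. RefSeq promoters in GRCm38.p6 matched 5 of the 6 genes, Slc4a1 being the exception. The 200 bases before each annotated start are given 5′ to 3′ on the gene's strand, with capitals marking 4 motifs on either strand: GATAA, the core of a GATA factor motif, CACCC of the CACCC box, CCAAT of the CCAAT box and TATAA of the TATA box. They lie at chr11:32283472-32283671 for Hba-a1, chr11:32296292-32296491 for Hba-a2, chr7:103827929-103828128 for Hbb-bs, chr7:103813924-103814123 for Hbb-bt and chrX:150547217-150547416 for Alas2.
Hba-a1: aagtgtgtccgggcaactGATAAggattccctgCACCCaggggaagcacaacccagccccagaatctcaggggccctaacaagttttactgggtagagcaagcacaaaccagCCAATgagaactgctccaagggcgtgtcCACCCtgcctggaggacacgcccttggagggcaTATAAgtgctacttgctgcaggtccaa
Hba-a2: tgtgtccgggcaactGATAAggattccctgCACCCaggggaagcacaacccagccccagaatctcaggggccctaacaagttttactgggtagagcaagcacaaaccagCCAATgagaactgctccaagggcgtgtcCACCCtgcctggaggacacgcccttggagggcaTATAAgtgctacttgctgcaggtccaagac
Hbb-bs: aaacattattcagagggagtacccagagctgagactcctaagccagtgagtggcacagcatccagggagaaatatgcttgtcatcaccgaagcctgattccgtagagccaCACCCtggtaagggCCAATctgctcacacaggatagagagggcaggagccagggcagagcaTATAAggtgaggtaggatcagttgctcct
Hbb-bt: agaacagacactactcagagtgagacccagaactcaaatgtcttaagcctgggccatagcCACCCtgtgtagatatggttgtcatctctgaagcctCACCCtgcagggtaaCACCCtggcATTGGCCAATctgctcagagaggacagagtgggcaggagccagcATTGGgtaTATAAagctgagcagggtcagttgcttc
Alas2: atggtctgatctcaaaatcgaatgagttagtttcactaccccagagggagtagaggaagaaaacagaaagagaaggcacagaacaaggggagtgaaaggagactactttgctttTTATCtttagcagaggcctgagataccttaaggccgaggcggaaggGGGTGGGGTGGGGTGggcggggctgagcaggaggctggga

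The alpha promoters shared an unbroken run of 197 of 200 bases, whereas the longest run shared by the beta promoters was 14 bases. All 4 globin promoters held the CACCC and the CCAAT motif and TATAA, the last starting 27 to 30 bases before the annotated start. GATAA was found in both alpha promoters, 182 bases before the start in Hba-a1 and 185 bases before it in Hba-a2, and in the Alas2 promoter as TTATC on the given strand. In the Hbb-bt promoter a CCAAT on each strand lie side by side. Among 32851 promoter windows of the same length, 18.1% held GATAA, 45.5% CACCC, 29.3% CCAAT and 18.5% TATAA, so each motif alone is common and a match is a description only.

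Library totals ran from 21871617 to 34302786 counts, and 3 counts, taken as the floor of a single library, correspond to 0.0875 to 0.137 CPM, the count scaled to the library total. Summed markers of cardiomyocytes took 45122 to 52944 CPM in neonatal recipients, 45556 to 51004 CPM in neonatal controls, 52740 to 57342 CPM in adult recipients and 42553 to 47217 CPM in adult controls. Neonatal control 8 stood apart from the other neonatal libraries, with a score of 53.0 on their first principal component against -21.1 to 9.60 for the rest. The comparisons that use the neonatal controls are therefore also given without it.

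The 4 globin genes took more of the RNA in adult hearts than in neonatal hearts, and most in adult hearts given T cells. Together they made up 0.284%, 0.168%, 0.267% and 0.172% of counts in neonatal recipients 1, 2, 4 and 5. The neonatal controls, numbered 6 to 9, had 0.204%, 0.325%, 0.299% and 0.117%. In adult recipients 1 to 4 the share was 0.464%, 0.599%, 0.630% and 0.476%, against 0.356%, 0.360% and 0.391% in adult controls 5 to 7. Each adult recipient lay above each adult control, and each adult library lay above each neonatal library. The neonatal groups overlapped, with controls 7 and 8 above and control 9 below all neonatal recipients. The neonatal controls were the most scattered, with a 2.77-fold gap between their highest and lowest library against 1.10-fold in adult controls.

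Among the alpha genes, Hba-a1 had 735, 460, 776 and 486 CPM in neonatal recipients, against 570, 924, 797 and 315 CPM in neonatal controls. It had 1294, 1630, 1669 and 1304 CPM in adult recipients, against 940, 944 and 1103 CPM in adult controls. Hba-a2 ran in parallel, with 404 to 693 CPM in neonatal recipients, 278 to 817 CPM in neonatal controls, 1172 to 1498 CPM in adult recipients and 841 to 987 CPM in adult controls. For both alpha genes the lowest library of all 15 was neonatal control 9.

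Levels per kilobase, and any order among them, depend on the transcript length taken, 699 bases for Hba-a1 against 554 for its near copy Hba-a2. On this scale, as in CPM, Hbb-bs had the highest group mean of the 6 genes in every group. It had 927, 516, 770 and 521 CPM in neonatal recipients, against 614, 956, 948 and 369 CPM in neonatal controls. It had 1451, 1903, 2076 and 1535 CPM in adult recipients, against 1169, 1210 and 1211 CPM in adult controls. The adult controls lay within 1.04-fold of each other. Hbb-bt had 282 to 523 CPM in neonatal recipients, 212 to 555 CPM in neonatal controls, 722 to 1056 CPM in adult recipients and 597 to 609 CPM in adult controls.

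Alas2, the haem synthesis gene, had the same order of group means as the globin genes. It had 34.1, 25.1, 27.8 and 20.6 CPM in neonatal recipients, against 23.0, 41.8, 37.4 and 13.4 CPM in neonatal controls. It had 47.5, 52.6, 69.4 and 47.8 CPM in adult recipients, against 44.5, 44.1 and 45.2 CPM in adult controls. Slc4a1, encoding band 3, had the opposite order of ages by group mean. It had 6.71, 5.27, 9.01 and 4.46 CPM in neonatal recipients, against 6.33, 9.74, 7.33 and 5.78 CPM in neonatal controls. It had 4.29, 4.29, 4.50 and 4.03 CPM in adult recipients, against 3.46, 3.93 and 5.11 CPM in adult controls.

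Per kilobase of the longest transcript, the level in adult controls averaged 1905 ± 37.9 CPM for Hbb-bs, 1614 ± 146 CPM for Hba-a2, 1424 ± 133 CPM for Hba-a1, 861 ± 9.37 CPM for Hbb-bt, 21.9 ± 0.291 CPM for Alas2 and 0.917 ± 0.187 CPM for Slc4a1 (SD, n = 3). The libraries of the 2 alpha genes overlapped, although Hba-a2 was higher than Hba-a1 within each, and those of the other neighbours in this order did not. The annotated transcripts used for this scale ran from 554 bases for Hba-a2 to 4545 bases for Slc4a1, with 699 for Hba-a1. In counts Hba-a1 was the higher of the alpha genes in each library, so their order here came from these lengths.

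**Figure D1:**
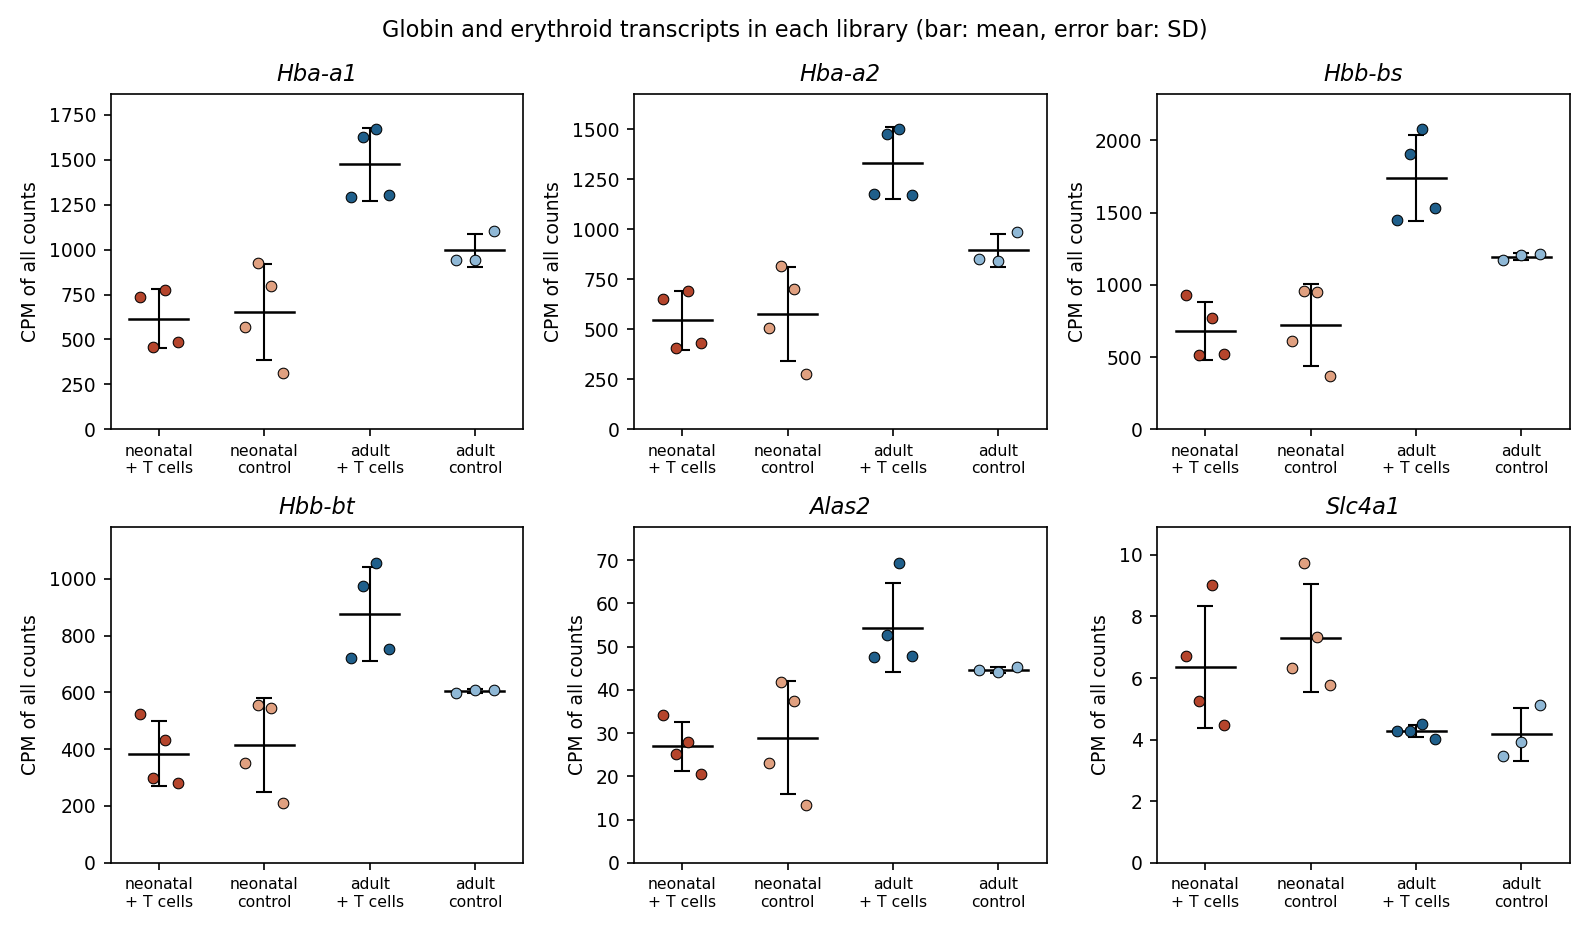
Level of each of the 6 genes in CPM (y axis, linear, from 0) in the 15 libraries; points are libraries, horizontal bars group means and error bars SD. For the 4 globin genes and Alas2 every adult library lies above every neonatal control, while the means of Slc4a1 are higher in the neonatal groups.

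The first comparison asked whether transfer of adult T cells altered these genes in neonatal infarcted hearts. No difference was found: 0 of the 6 genes were called, against 0% of all 16437 genes, in edgeR's quasi-likelihood test with Benjamini-Hochberg adjustment. At an unadjusted p below 0.05 there were 514 genes in all and 0 of the 6. The globin log2 fold changes lay between -0.12 and -0.09, Alas2 was at -0.11 ± 0.30 and Slc4a1 at -0.21 ± 0.19 (SE), all with an adjusted p of 0.999. Intervals of 2 SE around them were wide, from -0.67 to 0.48 for Hba-a1 and from -0.59 to 0.18 for Slc4a1, so that changes of this size in either direction were not detectable with 4 libraries a group. Leaving out neonatal control 8 moved Hba-a1 to 0.03, Hba-a2 to 0.04, Hbb-bs to 0.09, Hbb-bt to 0.05, Alas2 to 0.05 and Slc4a1 to -0.20, and the sign of the globin genes and Alas2 turned also without neonatal control 7.

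In adult hearts, the recipients lay above the controls for the globin genes and Alas2 without passing the test across all groups. For 5 of the 6 genes every recipient lay above every control, against 9.83% of all genes tested that lay wholly higher in recipients. The log2 fold change was 0.60 ± 0.31 for Hba-a1 (adjusted p = 0.238, edgeR), 0.61 ± 0.32 for Hba-a2 (0.233), 0.58 ± 0.32 for Hbb-bs (0.264) and 0.57 ± 0.33 for Hbb-bt (0.281). Alas2 was at 0.32 ± 0.32 (adjusted p = 0.565, edgeR) and Slc4a1 at 0.07 ± 0.22 (0.867), whose groups overlapped. Thus 0 of 6 genes were called in a comparison where 8.55% of all genes were.

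A fit of the 7 adult libraries alone called 1804 of the 15560 genes it tested, 765 of them higher in recipients. In it all 4 globin genes were called, with log2 fold changes of 0.59 for Hba-a1 (adjusted p = 0.0145, edgeR), 0.60 for Hba-a2 (0.0134), 0.56 for Hbb-bs (0.0235) and 0.56 for Hbb-bt (0.0372), while Alas2 was not. With the trend over transcript length also removed the 4 values were 0.38 to 0.42 and none was called (adjusted p 0.0883 to 0.191, edgeR). In the fit of the adult libraries, the call of Hba-a1 was lost without adult controls 5 or 6, that of Hba-a2 without adult control 5, that of Hbb-bs without adult recipient 2 or any 1 control, and that of Hbb-bt without adult recipients 2 or 3 or any 1 control. The lowest and highest adjusted p over the 7 libraries left out were 0.0153 and 0.0724 for Hba-a1 and 0.0248 and 0.116 for Hbb-bt.

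The difference between the T cell effects of both ages was then tested as an interaction. It was -0.70 ± 0.42 for Hba-a1 (adjusted p = 0.453, edgeR), -0.70 ± 0.43 for Hba-a2 (0.453), -0.66 ± 0.43 for Hbb-bs (0.479) and -0.70 ± 0.44 for Hbb-bt (0.469) on the log2 scale. Alas2 was at -0.43 ± 0.44 and Slc4a1 at -0.28 ± 0.29. None of the 6 genes was called, against 0% of all genes tested in edgeR, with 2511 genes at an unadjusted p below 0.05 and 174 genes called by DESeq2. Without neonatal control 8 the globin genes were at -0.59 to -0.50, Alas2 at -0.29 and Slc4a1 at -0.28, none of them called. The opposite signs of the globin genes in neonatal and adult hearts were thus not shown to differ.

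Between ages, control hearts gave 1 call in each direction among the 6 genes, beta globin Hbb-bs lower and band 3 Slc4a1 higher in neonatal hearts. The libraries of both ages did not overlap for any of the 6 genes, 5 of them lower in neonatal hearts, where 9.56% of all genes were wholly lower and 31.8% wholly higher. Calls at an adjusted p below 0.05 were made for 30.9% of all genes, 15.6% lower and 15.4% higher, so 1 of 6 genes in each direction is near these shares. Hbb-bs had a log2 fold change of -0.89 ± 0.31 (adjusted p = 0.0470, edgeR), a 1.85-fold lower level in neonatal controls. It was not called in a fit of the control libraries alone (adjusted p = 0.0902, edgeR), nor were the summed beta genes (-0.82, adjusted p = 0.0637, edgeR). Slc4a1 had 0.65 ± 0.22 (adjusted p = 0.0283, edgeR), a 1.57-fold higher level. Hba-a1 was at -0.77 ± 0.31 (adjusted p = 0.0772, edgeR), Hba-a2 at -0.79 ± 0.31 (0.0705), Hbb-bt at -0.70 ± 0.32 (0.118) and Alas2 at -0.78 ± 0.32 (0.0832), none of them called. Without neonatal control 7, Hba-a1 (-0.97, adjusted p = 0.0412, edgeR), Hba-a2 (-0.997, 0.0378) and Alas2 (-0.997, 0.0422) were called. Without neonatal control 8, Alas2 was called (-0.95, adjusted p = 0.04998, edgeR), Hbb-bs was at -1.07 and Slc4a1 at 0.63. The call of Hbb-bs was lost without any 1 of neonatal controls 6 and 9 or adult controls 5, 6 and 7, and that of Slc4a1 without neonatal control 7 or adult controls 5 or 6 (adjusted p up to 0.109 and 0.131, edgeR).

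Between recipients of both ages the 4 globin genes and Alas2 fell in neonatal hearts, whereas Slc4a1 was not called. Of all genes 50.7% were called, 23.8% lower and 26.9% higher, and 12.1% were wholly lower in neonatal libraries, as were these 5 genes. Hba-a1 had a log2 fold change of -1.47 ± 0.29 (adjusted p = 0.00115, edgeR), Hba-a2 -1.49 ± 0.29 (0.00106), Hbb-bs -1.55 ± 0.30 (0.000839) and Hbb-bt -1.40 ± 0.30 (0.0021), levels 2.63- to 2.93-fold lower. Alas2 was 2.31-fold lower, with -1.21 ± 0.30 (adjusted p = 0.00498, edgeR). All 5 calls held without any 1 of the 8 libraries. Slc4a1 was at 0.37 ± 0.20 (adjusted p = 0.131, edgeR) with overlapping groups. Scaling by library totals alone moved the median of all genes by 0.17 in the control and 0.20 in the recipient comparison towards neonatal hearts, and there Slc4a1 was called at 0.57 (adjusted p = 0.025, edgeR). The same scaling ended the call of Hbb-bs in controls (-0.73, adjusted p = 0.0676, edgeR).

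**Figure D2:**
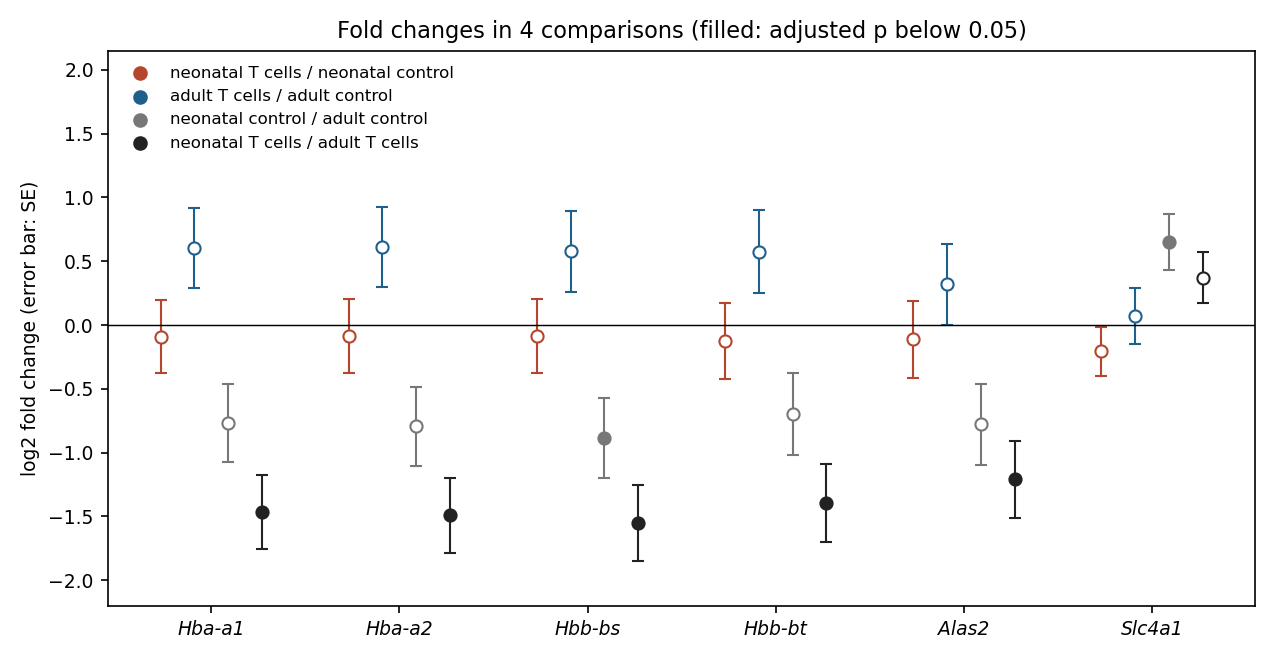
Log2 fold change of each of the 6 genes (y axis, points with SE) in the 4 comparisons of 2 groups, with filled points for an adjusted p below 0.05. The 4 globin genes and Alas2 are lowest in neonatal against adult recipients, from -1.55 to -1.21, and Slc4a1 lies above 0 in both comparisons of ages.

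Ratios between the genes within a library do not depend on its total, and 5 ratios were compared in 4 pairs of groups with exact two-sided permutation tests. For these group sizes the smallest p is 0.029, and no comparison passed after adjustment over all 20 (lowest adjusted p = 0.0714). Every comparison without overlap already stood at this smallest p, so a larger difference would not have lowered its adjusted p. The adjusted p depends also on how many of the 20 comparisons stand at the smallest p. The values are therefore given with their spread.

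Slc4a1 relative to the beta genes had the largest fold between ages of the 5 ratios. There were 6.04 ± 1.23 Slc4a1 counts per 1000 beta globin counts in neonatal recipients, against 1.67 ± 0.250 in adult recipients (SD, n = 4 each). There were 6.96 ± 2.13 in neonatal controls (n = 4), against 2.31 ± 0.445 in adult controls (n = 3). The highest adult library, at 2.81, lay below the lowest neonatal one, at 4.63, and the ratios of geometric means were 3.60 in recipients and 2.95 in controls (exact permutation p = 0.029, adjusted 0.0714, in both).

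Counts assigned to Hbb-bt were a larger part of beta globin counts in neonatal hearts, a ratio that rests on the uncertain division of reads between near copies. Hbb-bt over Hbb-bs was 0.561 ± 0.0153 in neonatal recipients, against 0.502 ± 0.0106 in adult recipients (SD, n = 4 each), and 0.576 ± 0.00340 in neonatal controls (n = 4), against 0.506 ± 0.00464 in adult controls (n = 3). The lowest neonatal library, at 0.541, lay above the highest adult one, at 0.513 (exact permutation p = 0.029, adjusted 0.0714, in both). Hba-a2 over Hba-a1, which rests on such a division too, was 0.886 ± 0.00562 in neonatal recipients, 0.884 ± 0.00308 in neonatal controls, 0.903 ± 0.00591 in adult recipients and 0.898 ± 0.00865 in adult controls. It was lower in neonatal hearts by a log2 difference of -0.02 in controls and -0.03 in recipients, without overlap (exact permutation p = 0.029, adjusted 0.0714, in both). The alpha over beta ratio averaged 1.10 ± 0.114, 1.07 ± 0.0714, 1.08 ± 0.0518 and 1.05 ± 0.0883 in the same order of groups (SD), with overlapping libraries in all 4 comparisons.

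Alas2 per 1000 beta globin counts was 20.8 ± 1.76 in adult recipients (SD, n = 4), against 24.8 ± 0.491 in adult controls (n = 3). These groups did not overlap, the highest recipient standing at 22.1 and the lowest control at 24.2 (exact permutation p = 0.029, adjusted 0.0714). In neonatal hearts it was 25.8 ± 3.53 in recipients and 24.9 ± 2.01 in controls, with overlap. Neonatal recipients lay above adult recipients without overlap, by 0.30 on the log2 scale (exact permutation p = 0.029, adjusted 0.0714). Controls of both ages overlapped. Beta globin RNA was thus higher relative to Alas2 RNA in adult recipients than in adult controls or neonatal recipients. Neither difference passed the adjustment, although both stood at the smallest p for these group sizes.

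**Figure D3:**
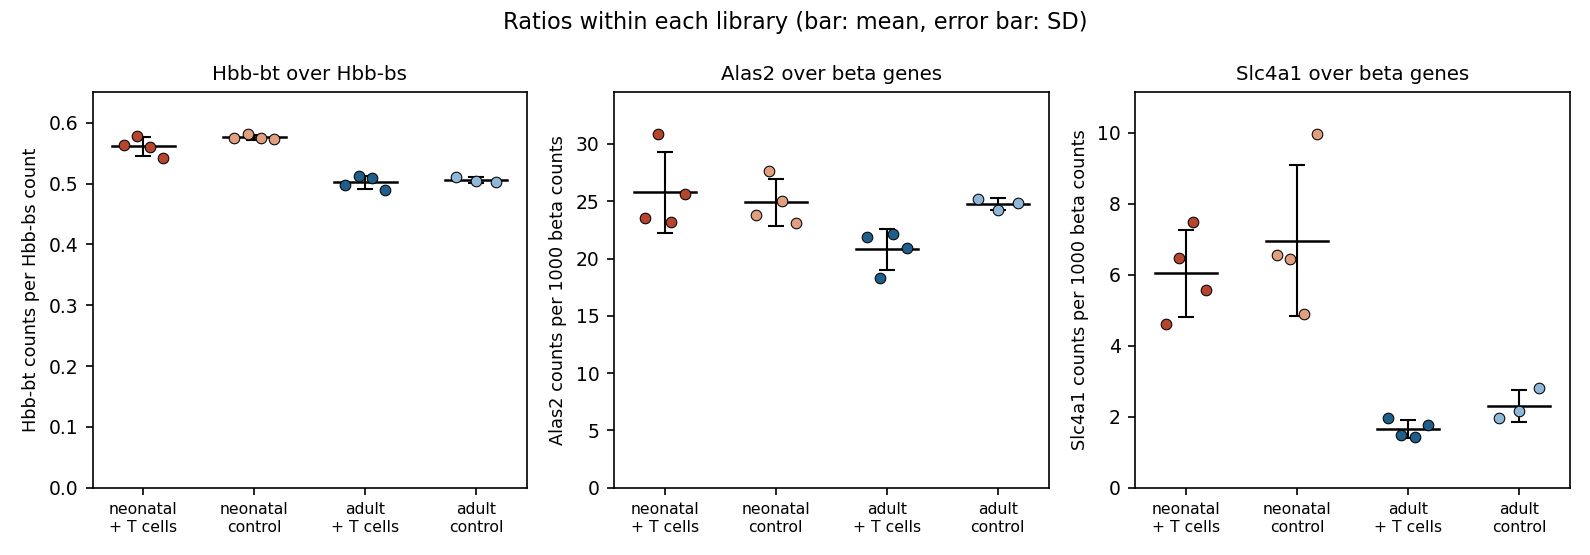
Hbb-bt over Hbb-bs, and Alas2 and Slc4a1 per 1000 beta globin counts, within each library (y axes, linear, from 0) by group; points are libraries, horizontal bars means and error bars SD. Slc4a1 per 1000 beta globin counts and Hbb-bt over Hbb-bs lie higher in each neonatal library than in each adult one. Alas2 lies lower in adult recipients than in adult controls and neonatal recipients.

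Pooled over the groups, the genes rose and fell together from library to library. Over 15 libraries, deviations of log2 CPM from the group means correlated at r = 0.9998 between the alpha genes, 0.998 between the beta genes and 0.970 between Hba-a1 and Hbb-bs. Alas2 correlated with the globin genes at 0.927 to 0.959, Slc4a1 with them at 0.712 to 0.802, and Alas2 with Slc4a1 at 0.660. All points of such a correlation share the library, its depth and its scaling, and the copies within a pair share reads. Neonatal control 9 gave the farthest point, 0.95 below its group mean for the globin genes and 1.02 below it for Alas2. Adult controls 5 to 7 varied little, with globin deviations of -0.041, -0.005 and 0.046. Those of Alas2 were 0.005, 0.010 and -0.015 there and did not follow them.

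**Figure D4:**
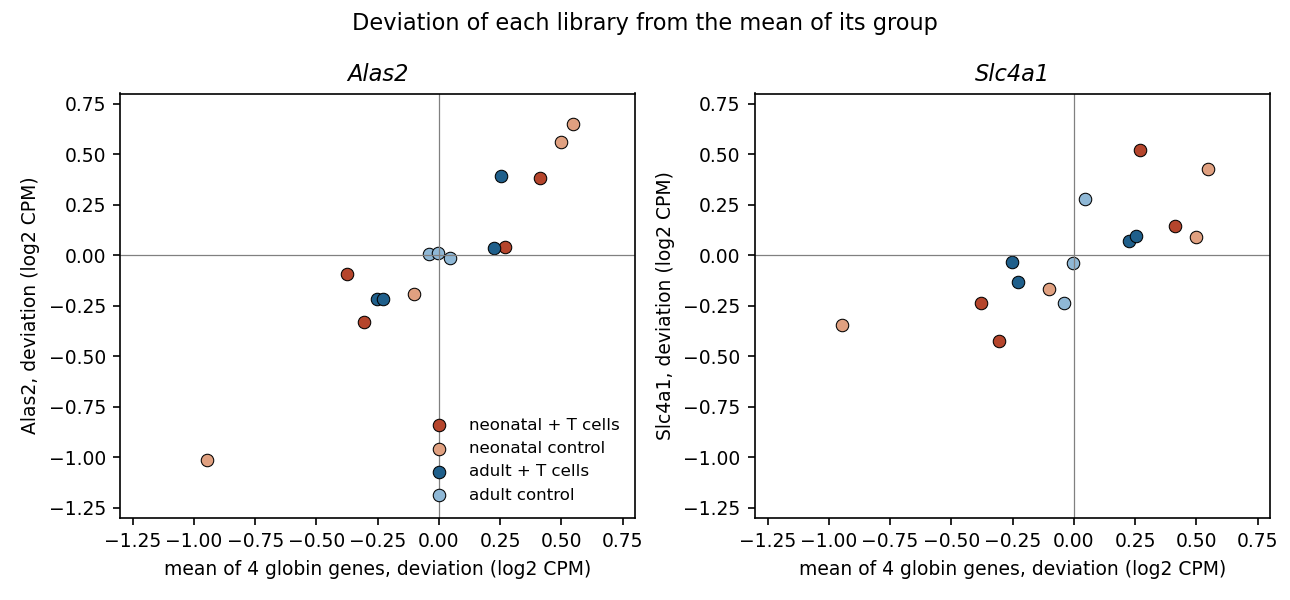
Deviation of Alas2 and of Slc4a1 from the group mean in log2 CPM (y axes) against the mean deviation of the 4 globin genes (x axis) in the 15 libraries. The points of Alas2 follow the globin genes more tightly than those of Slc4a1, and neonatal control 9 lies lowest on the x axis.

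Among 14034 genes of at least 1 mean CPM, Alas2 was the gene whose deviations were most like the mean of the 4 globin genes (r = 0.951, 15 libraries), and Slc4a1 ranked 15 (0.764). Among the next were Bpgm, encoding the enzyme that makes 2,3-bisphosphoglycerate in red cells (0.903), Cwc27 (0.865), Clmn (0.831), Mkrn1 (0.826), the B cell gene Ms4a1 (0.818), Hrct1 (0.798), Jpt1 (0.797), E430018J23Rik (0.784) and Mmp17 (0.777). Bpgm averaged 35.1 CPM in neonatal and 37.8 CPM in adult recipients (log2 fold change -0.30, adjusted p = 0.0095, edgeR). It averaged 36.0 CPM in neonatal and 34.7 CPM in adult controls, where it was not called (-0.11, adjusted p = 0.417, edgeR). The fold changes are TMM-scaled and the CPM are not, and in controls their directions differ.

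Other globin genes were close to the floor. Of the 6 with a row, none passed the filter. Hbb-y, an embryonic beta-like gene, had 17 counts over the 4 neonatal recipients and 12 over the 4 neonatal controls, against 4.25 over the 4 adult recipients and 1 over the 3 adult controls. Hba-x, Hbb-bh1 and Hbb-bh2 had at most 5 counts in any library, and Hbq1a and Hbq1b at most 10.5. Red cell precursor regulators were as sparse: Klf1 had 1 to 15 counts a library and Gata1 0 to 5.43, both below the filter.

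The wider haem synthesis and iron list is expressed in many cell types. In adult hearts Alad and Urod, which make successive haem precursors, rose in recipients by 0.28 ± 0.08 and 0.27 ± 0.07 on the log2 scale (adjusted p = 0.0361 and 0.0366, edgeR), 2 of 15 genes, where 3.53% of all genes were called higher. In the fit of all groups, every call for T cells in adult hearts, those of Alad and Urod included, was lost in some settings. These were the length trend removed and leaving out adult recipient 4, adult control 5 or adult control 6, with 0 genes called in each. The fit of the adult libraries alone still called 84 genes with the length trend removed. It called 893, 61 and 553 genes without those libraries, in that order. Whether listed genes were among these is not reported here. In neonatal against adult controls 9 of 15 were lower and 0 higher, with a median of -0.26 against 0.02 over all genes, among them Steap3, a ferric reductase (-0.61 ± 0.08), and Abcb6 (-0.35 ± 0.08). In recipients 9 were lower and 3 higher. Of all genes, 15.6% were called lower and 15.4% higher in neonatal controls, and 23.8% and 26.9% in neonatal recipients. In the neonatal T cell comparison 0 of 15 were called, Tfrc being at -0.14 ± 0.13.

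Of 15 tested membrane and skeleton genes, 3 were higher and 6 lower in neonatal than in adult controls. In recipients 4 were higher and 7 lower, and 0 were called for T cells at either age. Over all genes 15.4% were higher and 15.6% lower in controls, and 26.9% and 23.8% in recipients. The counts of higher genes were near these shares, which apply to the other lists of this paragraph too. Ank1, encoding an ankyrin also made in muscle, averaged 135 ± 23.0 CPM in neonatal and 250.0 ± 14.7 CPM in adult controls (log2 fold change -1.06 ± 0.13). Aqp1, a water channel also of endothelium, fell by 0.85 on the log2 scale, and the glucose transporter Slc2a1 rose by 1.83. Of 7 tested transcription factors 3 were lower in neonatal controls, namely Zfpm1, Sox6 and Lmo2, and in recipients 2 were lower and Bcl11a higher (0.55 ± 0.14). Other red cell genes gave 2 of 15 higher in adult recipients, where 3.53% of all genes were called higher. They were Prdx2 (0.30 ± 0.09) and Mgst3 (0.37 ± 0.11), both widely expressed antioxidant enzymes. Their calls were lost in the same settings of the fit of all groups as those of Alad and Urod. In that list 4 were lower and 1 higher in neonatal controls, and 6 lower and 1 higher in neonatal recipients than in adult ones.

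Genes that clear haemoglobin and haem were called in both directions. Hmox1, the haem oxygenase, had 28.1 to 88.9 CPM in neonatal and 14.7 to 16.7 CPM in adult controls (log2 fold change 1.85 ± 0.33, adjusted p = 0.00141, edgeR). In recipients it had 67.5 to 119 CPM in neonatal and 13.4 to 20.7 CPM in adult hearts (2.10 ± 0.30). The ferritin light chain gene Ftl1 rose by 0.98 and 1.01 in the control and recipient comparisons, and Blvra by 0.43 in controls, whereas Slc48a1 fell by 0.32 in controls. In all, 3 of 10 genes were higher and 2 lower in neonatal controls, and 6 higher and 2 lower in neonatal recipients. Over all genes the shares were 15.4% higher and 15.6% lower in controls, and 26.9% and 23.8% in recipients. Fth1 alone was called for T cells, in adult hearts (0.30 ± 0.09), where 3.53% of all genes were called higher. That call was lost in the same settings of the fit of all groups as that of Alad.

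Markers of other blood cells did not follow 1 direction with age. Over all genes 15.4% were called higher and 15.6% lower in neonatal controls, and 26.9% and 23.8% in neonatal recipients. The 8 tested platelet genes had 3 higher and 0 lower in neonatal hearts in both comparisons, including Pf4 (1.49 ± 0.38 in controls) and Ppbp (1.52 ± 0.36), and their summed level was 30.5 to 53.3 CPM in neonatal controls against 20.6 to 27.3 CPM in adult controls. Of 9 neutrophil genes 5 were higher in neonatal than in adult recipients and 0 of 9 were called in controls, and summed levels were 25.0 to 62.1 CPM in neonatal and 16.0 to 31.9 CPM in adult controls. Of 6 B cell genes 3 were lower in neonatal controls, with Cd79a at -0.92 ± 0.23, and 2 in neonatal recipients. In adult recipients against adult controls, none of the platelet, neutrophil or B cell genes was called, and platelet levels overlapped, at 23.8 to 26.3 CPM against 20.6 to 27.3 CPM. There the T cell gene Cd4 rose by 1.05 ± 0.31, 1 of 5 tested, and 2 of 8 cardiomyocyte genes rose, Actc1 (0.33 ± 0.09) and Myl2 (0.35 ± 0.10), with the summed cardiomyocyte level higher in each recipient. Over all genes 3.53% were called higher in adult recipients. The calls of Cd4, Actc1 and Myl2 were lost in the same settings of the fit of all groups as that of Alad. Of the liver list, Alb and Afp had at most 11 counts in any library, and both tested genes, Ttr (-1.68 ± 0.32) and Apoa2 (-1.03 ± 0.25), were lower in neonatal than in adult recipients (adjusted p = 0.000315 and 0.00244, edgeR) and not called in the other comparisons. Whether blood content or cardiomyocyte share bears on the globin values was not tested.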

How the data were processed

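Gene counts of 15 libraries were analysed. Per the submitters' processing notes, bcl2fastq 2.20.0.422, cutadapt 2.5, STAR 2.7.2b, featureCounts 1.6.4 and DESeq2 1.24.0 were used with GRCm38.p6; the strand setting and the rule for shared reads were not given in the sources used here. The deposited values are estimated counts per gene, made with featureCounts and not normalized, and 61.1% of non-zero values are whole; they were rounded to whole numbers for the tests. Where a level in CPM is given, it is the deposited count scaled to the library total. Deviations of log2 CPM, their correlations and the principal component instead used rounded counts with TMM scaling and a prior count of 1. All 15 libraries entered 1 robust quasi-likelihood fit (edgeR 4.0.16, R 4.3.3) with TMM scaling and filterByExpr (minimum count 10, minimum total 15), with Benjamini-Hochberg adjustment over 16437 genes and a threshold of 0.05. The code was tested on simulated data. SE is that of the log2 fold change. Ratios within libraries were tested by exact two-sided permutation (SciPy 1.17.1).

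The genes and lists were chosen with earlier results of these data known. The text names the 6 genes in every comparison; of each other list at most the 4 called genes with the smallest p, or, where none was called, at most the 2 with the highest mean; and the 10 genes of at least 1 mean CPM most like the globin mean in their deviations. Embryonic globins, Klf1, Gata1, Alb and Afp, which fall below the filter, are named in addition. Alternatives were other scalings and filters, DESeq2 1.42.0, limma 3.58.1 voom, a replicate block, a spline over transcript length (5 degrees of freedom, 15333 genes), summed near-identical copies and leaving out each library. Hbb-bh0, Ahsp, Rhce and Fam46c were not analysed here. Some genes that this rule names are not reported here. No values of columns from other samples were present.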

Additional observations from a re-analysis of the deposited data

Results flagged for a closer look

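In 1 of 33 groups of 4 libraries checked, a single library stood far from the others. For Hbb-bt over Hbb-bs in neonatal controls, library 7 was at 0.581 and libraries 6, 8 and 9 at 0.574, 0.574 and 0.573, so that the gap between the highest and its neighbour made up 0.837 of the range. Chance gives such a gap in about 1 in 20 groups, and the whole range was small beside the difference to the adult controls, whose highest library was at 0.511.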

How the results depend on the processing

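Leaving out 1 library at a time gave neonatal T cell log2 fold changes of -0.33 to 0.11 for Hba-a1, -0.32 to 0.12 for Hba-a2, -0.31 to 0.090 for Hbb-bs, -0.35 to 0.049 for Hbb-bt, -0.35 to 0.11 for Alas2 and -0.40 to -0.043 for Slc4a1, and 0 to 9 genes called (9 without neonatal control 6). In adult hearts, over the fit of all groups and that of the adult libraries alone, the ranges were 0.52 to 0.67 for Hba-a1, 0.53 to 0.68 for Hba-a2, 0.46 to 0.67 for Hbb-bs, 0.45 to 0.67 for Hbb-bt, 0.16 to 0.39 for Alas2 and -0.057 to 0.22 for Slc4a1, Slc4a1 turning negative without adult control 5, and 0 to 1872 genes were called. The fit of all groups called 464 genes without adult recipient 2 and 0 without adult recipient 4, adult control 5 or adult control 6. In neonatal against adult controls the ranges were -0.97 to -0.53 for Hba-a1, -0.997 to -0.56 for Hba-a2, -1.07 to -0.66 for Hbb-bs, -0.88 to -0.47 for Hbb-bt, -0.997 to -0.54 for Alas2 and 0.49 to 0.80 for Slc4a1, and in recipients 0.18 to 0.50 for Slc4a1, called without neonatal recipient 5. Log2 differences of ratios that changed sign were -0.00027 to 0.0072 for Hba-a2 over Hba-a1, -0.028 to 0.090 for alpha over beta genes, -0.044 to 0.097 for Alas2 over beta genes and -0.33 to 0.0062 for Slc4a1 over beta genes for T cells in neonatal hearts, -0.021 to 0.0018 for Hbb-bt over Hbb-bs and -0.0041 to 0.11 for alpha over beta genes for T cells in adult hearts, -0.012 to 0.10 for alpha over beta genes and -0.047 to 0.040 for Alas2 over beta genes between ages in controls and -0.036 to 0.082 for alpha over beta genes between ages in recipients.

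For T cells in adult hearts, 1406 genes were called as reported, 2324 by DESeq2, 1804 in the adult libraries alone, 0 with the length trend removed and 84 in the adult libraries with it removed. The fit of the adult libraries alone gave 0.59, 0.60, 0.56 and 0.56 for Hba-a1, Hba-a2, Hbb-bs and Hbb-bt, all called; combining it with the length trend or with leaving out a library was chosen after seeing the data. DESeq2 called 174 genes for the difference of the T cell effects, against 0. In neonatal against adult controls Hba-a1 and Hba-a2 became called with DESeq2 (-0.78 and -0.80), limma voom (-0.89 and -0.92) and the length trend removed (-0.83 and -0.86), and Hbb-bt and Alas2 with limma voom (-0.81 and -0.90). Hbb-bs lost its call with library totals alone (-0.73), no filter (-0.87), the control libraries alone (-0.89) and summed copies (-0.82). Slc4a1 became called in recipients with library totals alone (0.57). Libraries of 2 groups that shared a replicate number had correlations of deviations of -0.07 to 0.31. These are too few to decide whether the numbers pair the libraries. With replicate numbers as a block, the age effect in controls came from numbers 6 and 7 alone, the only ones shared by both ages. In that fit, which rests on few libraries, Hba-a1, Hba-a2 and Hbb-bt became called (-0.66, -0.67 and -0.63). Slc4a1 lost its call there (0.65). The cause of these changes was not tested. The calls of the 4 globin genes and Alas2 in recipients held under each alternative run. Slc4a1, at 92 to 334 counts a library, rests on the fewest counts of the 6 genes.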
